A study of Mus musculus with 7 samples.

Results

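The genes described here belong to 6 mouse solute carrier (Slc) families known for amino acid transporters, families 1, 3, 7, 36, 38 and 43. Within these families genes were taken by name: every gene whose symbol is one of the family prefixes followed by digits only. This set was chosen with earlier results of these data known. The table of gene counts held 42 such genes among 55536, and 28 of them reached 10 counts in 3 or more libraries. Both groups contributed libraries at that minimum for each of the 28. The RNA came from pancreatic alpha cells, the islet cells that make glucagon, and was compared between 4 control and 3 knockout (KO) libraries. Controls had the genotype Nkx2.2+/+;Gcg-iCre;Rosa26:tdTomato and KO mice Nkx2.2fl/fl;Gcg-iCre;Rosa26:tdTomato. Both groups therefore carried Cre under control of the glucagon gene and the red reporter tdTomato, which Cre switches on and by which cells were sorted from islets. The KO mice differ by copies of Nkx2-2, a homeodomain transcription factor gene, that Cre can recombine. Strain, age, sex and the number of animals per library are not given in the sources used here, so p-values measure only the spread between these libraries, which may in part be technical.

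Amino acids are a main stimulus of glucagon secretion, and glucagon in turn drives amino acid breakdown in the liver. When this loop is interrupted, amino acids in blood accumulate and alpha cells multiply, a response in which the glutamine carrier Slc38a5 is known to take part. Carriers differ in what they move and how. Family 38 takes up neutral amino acids such as glutamine together with sodium. Most family 7 proteins are either carriers of cationic amino acids such as arginine or light chains that need a heavy chain of family 3 to reach the membrane. Family 36 moves small amino acids with protons, and family 1 holds glutamate carriers and neutral exchangers. Family 43 includes facilitative carriers of large neutral amino acids, though not every member need be such a carrier.

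Total counts ran from 45483504 to 72456557 per library. Nkx2-2 (chromosome 2, 147177546 to 147194243) had normalized counts of 8596, 11199, 12297 and 9782 in the controls, against 7758, 7534 and 7694 in KO, with adjusted p values of 0.0223 (DESeq2) and 0.152 (edgeR). It passed in 2 of the 7 DESeq2 fits that each left out a library. Which exons Cre removes is not given in the sources used here, so counts over the whole gene check the labels only in direction. The control libraries carried abundant Gcg, the defining alpha cell transcript, with 6164736 to 8050552 normalized counts, against 2837930 to 4098502 in KO libraries. Its log2 fold change was -1.04, with adjusted p values of 6.93e-10 (DESeq2) and 0.175 (edgeR, not passed). Of the 10 alpha cell markers, which include Slc38a5 and Slc7a2 themselves, 7 were lower in DESeq2 and 3 in edgeR, with a median log2 fold change of -0.72. Summed markers of gamma cells, another islet type, were 309330 to 580204 in controls and 889660 to 1136309 in KO libraries, without overlap, and 2 of the 4 markers, Ppy and Pyy, rose. Beta cell markers (338274 to 692291 against 537159 to 983025) and delta cell markers (197155 to 400129 against 356961 to 633738) overlapped in their sums. In DESeq2 3 of the 10 beta cell markers were higher (Iapp, Npy and Glp1r, list median 0.49). So were 2 of the 5 delta cell markers (Rbp4 and Ffar4, list median 0.64), and 0 of either list were lower. In edgeR 0 of either list were called, and 1 gamma cell marker was higher. Among all genes tested, DESeq2 called 2.2% as lower and 2.19% as higher, and edgeR called 1.05% in either direction. In bulk RNA, fewer cells of a type and less RNA per cell cannot be told apart, and the part of these shifts in the results below was not tested. Control 4 and the unnumbered KO library were the deepest, and control 4 had a count in 31024 genes, against 23150 to 25873 in the other libraries. Slc7a15 had 222 counts in control 4 and at most 4 elsewhere.

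In KO cells 5 of the 28 transporter genes were lower and 0 were higher, at an adjusted p under 0.05 in DESeq2. The 5 were Slc38a5, a sodium-coupled glutamine carrier, Slc7a8, the light chain LAT2, Slc3a2, the heavy chain that LAT2 pairs with, Slc38a4, a sodium-coupled carrier of neutral and cationic amino acids, and Slc7a2, a carrier of arginine and lysine. They include the 4 most abundant of the 28 genes per kilobase of exon in controls. KO levels were 22.6% of control for Slc38a5, 32.6% for Slc7a8, 52.0% for Slc3a2, 62.4% for Slc38a4 and 75.3% for Slc7a2. Among all 18023 genes tested, 4.39% were called, 2.2% as lower and 2.19% as higher. The share of lower calls was 17.9% among the 28, a set chosen with earlier results of these data known. The edgeR quasi-likelihood test called 4 of the 5, all but Slc7a2, which is 14.3% of the 28 against 0.647% of all 19310 genes it tested (1.05% in either direction). Transporters called higher numbered 0 in edgeR too, and in each tool 1 was higher at an unadjusted p under 0.05. At that unadjusted level 8 were lower in DESeq2.

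**Figure D1:**
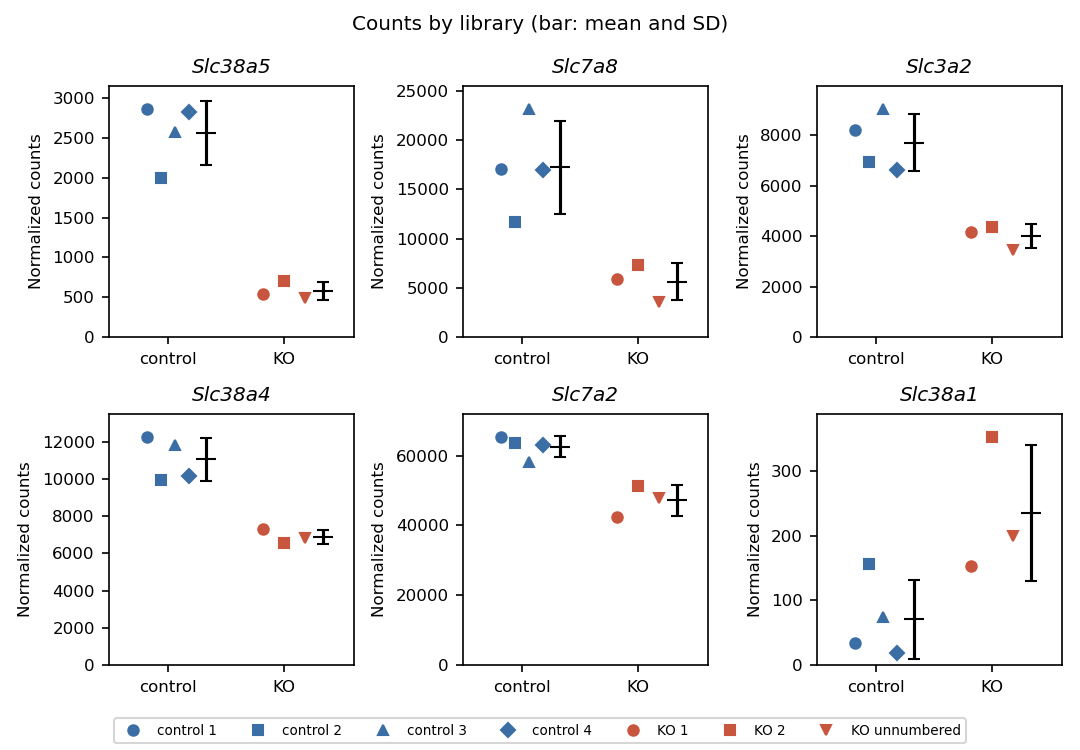
Normalized counts (linear axes from 0) of the 5 genes that were lower in KO and of Slc38a1, with 1 point per library and a bar for the mean and SD of 4 controls and 3 KO libraries. For the 5 genes every KO library lies below every control, while Slc38a1 of KO 1 (152.5) lies just below that of control 2 (155.7).

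Because these 5 genes were all lower, bases just upstream of a RefSeq start are shown for the 4 that RefSeq windows on GRCm38.p6 cover. Slc7a2 was not among them, and windows matched 21 of the 28 genes in all. Only bases outside annotated exons are printed, 5′ to 3′ on the strand of the gene. The bases shown for Slc38a5, Slc38a4 and Slc3a2 lie inside the gene spans given below, downstream of the outermost annotated start. Capitals mark AAGTG or its reverse complement CACTT, the core of the sites that NK2-type homeodomain proteins such as NKX2.2 bind. The windows are chrX:8271261-8271380 (plus strand) for Slc38a5, chr14:54781947-54782136 (minus) for Slc7a8, chr15:97031214-97031463 (minus) for the second of 3 starts of Slc38a4, chosen because it holds the most matches, and chr19:8713898-8713960 (minus) for Slc3a2.
Slc38a5: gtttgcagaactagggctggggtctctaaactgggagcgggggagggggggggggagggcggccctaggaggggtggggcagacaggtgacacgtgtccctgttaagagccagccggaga
Slc7a8: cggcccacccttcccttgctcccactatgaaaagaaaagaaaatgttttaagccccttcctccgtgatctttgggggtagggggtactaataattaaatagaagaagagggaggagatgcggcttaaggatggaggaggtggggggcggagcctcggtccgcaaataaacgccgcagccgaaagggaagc
Slc38a4: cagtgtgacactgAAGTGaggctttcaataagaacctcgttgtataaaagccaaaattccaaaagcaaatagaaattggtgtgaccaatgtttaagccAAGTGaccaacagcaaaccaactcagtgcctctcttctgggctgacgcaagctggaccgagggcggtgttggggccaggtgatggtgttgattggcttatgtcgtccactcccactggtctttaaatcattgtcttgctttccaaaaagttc
Slc3a2: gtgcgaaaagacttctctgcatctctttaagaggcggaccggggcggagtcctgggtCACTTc

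A longer motif, TNAAGTG on either strand (which contains AAGTG), was found in 1 of the 6 windows of 300 bases that belong to genes that were lower, the Slc38a4 window shown, and in 3 of the 30 windows of all reported transporters. The window at the first Slc38a4 start holds 0 matches to either motif. TNAAGTG occurred in 11.5% of 32817 such windows genome-wide. The core AAGTG alone was in 3 of these 6, in 7 of the 30, and in 46.4% of all windows. A match is a string of letters and not a shown binding site, and a window without one says only that the letters are not in it.

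System N carriers, which move glutamine, asparagine and histidine with sodium, were represented by Slc38a5 (ENSMUSG00000031170, chromosome X, 8271133 to 8280179, plus strand). Normalized counts of Slc38a5 were 2866, 1992, 2573 and 2824 in controls 1 to 4, against 543, 704 and 495 in KO 1, in KO 2 and in the unnumbered library of that group. The lowest control was well above the highest KO library. The mean fell from 2564 ± 402 (SD, n = 4) to 581 ± 110 (SD, n = 3) (log2 fold change -2.14, SE 0.18, DESeq2 adjusted p 7.28e-29, edgeR adjusted p 0.0024). With any 1 library left out (7 fits) the log2 fold change lay between -2.31 and -2.04, and the gene passed in all 7. The other system N carrier, Slc38a3, stayed below the count minimum, with 20 counts in control 4 and at most 6 elsewhere.

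The heteromeric carriers pair a light chain of family 7 with a heavy chain, and both partners of the LAT2 complex were lower. Slc7a8 (ENSMUSG00000022180, chromosome 14, 54722209 to 54781946, minus strand), which exchanges neutral amino acids, had 17016, 11723, 23168 and 16961 normalized counts in the controls, against 5895, 7330 and 3615 in KO. Control 2 was the lowest and control 3 the highest of the controls, and all KO libraries were lower than either. The mean fell from 17217 ± 4680 (SD, n = 4) to 5613 ± 1874 (SD, n = 3) (log2 fold change -1.62, SE 0.24, DESeq2 adjusted p 1e-08, edgeR adjusted p 0.0372).

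Slc3a2 (ENSMUSG00000010095, chromosome 19, 8706882 to 8723369, minus strand) encodes 4F2hc, also known as CD98, the heavy chain of several light chains. Its normalized counts were 8199, 6920, 9034 and 6623 across controls and 4175, 4377 and 3448 across KO libraries. The groups did not overlap, and the unnumbered KO library was lowest for both this gene and Slc7a8. The mean went from 7694 ± 1125 (SD, n = 4) to 4000 ± 489 (SD, n = 3) (log2 fold change -0.94, SE 0.15, DESeq2 adjusted p 2.59e-08, edgeR adjusted p 0.0202). Slc7a8 and Slc3a2 each passed whichever of the 7 libraries was left out.

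The remaining light chains did not pass. Slc7a5 encodes LAT1, the other main partner of 4F2hc for large neutral amino acids, and had 2562, 3366, 2875 and 2609 normalized counts in the controls, against 2755, 3096 and 2195 in KO. The groups overlapped, and the log2 fold change was -0.09 with a 95% interval of -0.40 to 0.22 (adjusted p 0.99 in DESeq2). Slc7a6, a light chain that exchanges cationic for neutral amino acids, had a log2 fold change of -0.24 (interval -0.65 to 0.17). Slc7a7, which has the same kind of activity, had 0.27 (-0.30 to 0.83). Per kilobase of exon, Slc7a8 was 4.92, 2.58, 5.97 and 4.82 times the level of Slc7a5 in controls 1 to 4, and 1.59, 1.75 and 1.22 times in the KO libraries. The light chains reported here, summed per kilobase, were 1.75 to 2.31 times Slc3a2 in controls and 1.58 to 2.00 times in KO libraries, which overlap. Slc7a8 alone was 1.19 to 1.81 times Slc3a2 in controls and 0.74 to 1.18 times in KO libraries. These ranges did not overlap, though control 2 lay just above KO 2. Slc3a1, the heavy chain of the kidney cystine carrier, was low, with 54.5 to 153.9 normalized counts in controls and 92.9 to 175.6 in KO libraries. Exons of Prepl on the opposite strand cover 26.5% of its exon length, so its counts are uncertain. Slc7a11, the light chain of the cystine and glutamate exchanger, had at most 8 counts in any library.

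Cationic carriers of family 7 included the most abundant transporter of the 28. Slc7a2 (ENSMUSG00000031596, chromosome 8, 40862396 to 40922308, plus strand) encodes CAT2, which takes up arginine, lysine and ornithine. It had 65457, 63602, 58198 and 63175 normalized counts across controls and 42306, 51184 and 47990 across KO libraries. The controls lay close together and KO 1 was the lowest. The mean fell from 62608 ± 3102 (SD, n = 4) to 47160 ± 4497 (SD, n = 3) (log2 fold change -0.41, SE 0.10, adjusted p 0.00221 in DESeq2). The call was lost in edgeR (adjusted p 0.178, and 0.168 without control 4), without KO 1 (0.0836 in DESeq2), and with size factors from total counts (0.123). Exons of the opposite-strand gene Gm26584 cover 7% of its exon length.

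The other members of this role did not pass. Slc7a1, which encodes CAT1, the widely expressed arginine carrier, had 2673, 3097, 2898 and 3020 normalized counts in the controls, against 3003, 3467 and 3040 in KO (log2 fold change 0.12, 95% interval -0.10 to 0.33). Per kilobase, Slc7a2 was 25.3 to 30.9 times Slc7a1 in controls and 17.8 to 19.9 times in KO libraries. Slc7a14, a related protein of intracellular membranes, had 19049, 21032, 19462 and 18168 normalized counts across controls and 21094, 22198 and 18155 across KO libraries. Its groups overlapped, with a log2 fold change of 0.08 (-0.13 to 0.29). Slc7a4 had 0.06 (-0.31 to 0.42), with 13.3% of its exon length under exons of P2rx6, and Slc7a3, at 28.3 normalized counts or fewer, had -0.56 (-2.32 to 1.21).

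System A carriers, which take up small neutral amino acids with sodium, lie on the same strand of chromosome 15 and gave unlike values. Slc38a4 (ENSMUSG00000022464, 96994820 to 97055956, minus strand) had 12288, 9973, 11830 and 10176 normalized counts in the controls, against 7302, 6572 and 6834 in KO. The 3 KO libraries were close to each other and below all controls. The mean fell from 11067 ± 1164 (SD, n = 4) to 6903 ± 370 (SD, n = 3) (log2 fold change -0.68, SE 0.11, DESeq2 adjusted p 3.87e-07, edgeR adjusted p 0.0269), and it passed whichever of the 7 libraries was left out.

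Slc38a2 (96687392 to 96699730), known for its induction when amino acids are scarce, had 5632, 5002, 5878 and 6074 normalized counts across controls and 5408, 5324 and 6108 across KO libraries. The groups overlapped fully, with a log2 fold change of -0.01 and a 95% interval of -0.23 to 0.21, whose sign changed with the scaling (0.0057 with TMM and 0.10 with total counts). Slc38a1 (96571418 to 96642913) was a low transcript with 34.0, 156, 74.5 and 18.8 normalized counts in the controls, against 153, 353 and 200 in KO. It is described, after its values were seen, as the reported transporter with the highest log2 fold change, 1.74 (SE 0.62). It had adjusted p values of 0.0879 (DESeq2) and 0.347 (edgeR). It passed without control 2 (2.49, adjusted p 0.00029 in DESeq2), without control 4 (1.42, 0.0347) and with size factors from total counts (1.86, 0.045), and in no other fit that left out 1 library.

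The other family 38 members did not pass. Slc38a10 was the most abundant of them, with 13164, 14573, 14789 and 11302 normalized counts across controls and 15416, 16957 and 13059 across KO libraries, and a log2 fold change of 0.17 (95% interval -0.10 to 0.44). Slc38a7, a lysosomal glutamine exporter, had -0.21 (-0.48 to 0.07). Slc38a9, a lysosomal arginine sensor that acts on the growth kinase complex mTORC1, had 0.04 (-0.60 to 0.68). Slc38a9 and Slc38a6 were highest in the 2 deepest libraries: Slc38a9 had 859 normalized counts in control 4 and 810 in the unnumbered KO library, and 339 to 559 in the others. Slc38a6 had 626 and 592 there, against 246 to 381. Slc38a11 had 146, 96.7, 124 and 133 normalized counts in the controls, against 88.0, 83.7 and 71.9 in KO, without overlap but with an adjusted p of 0.388 in DESeq2. Slc38a8 had 40.8 normalized counts or fewer in every library.

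**Figure D2:**
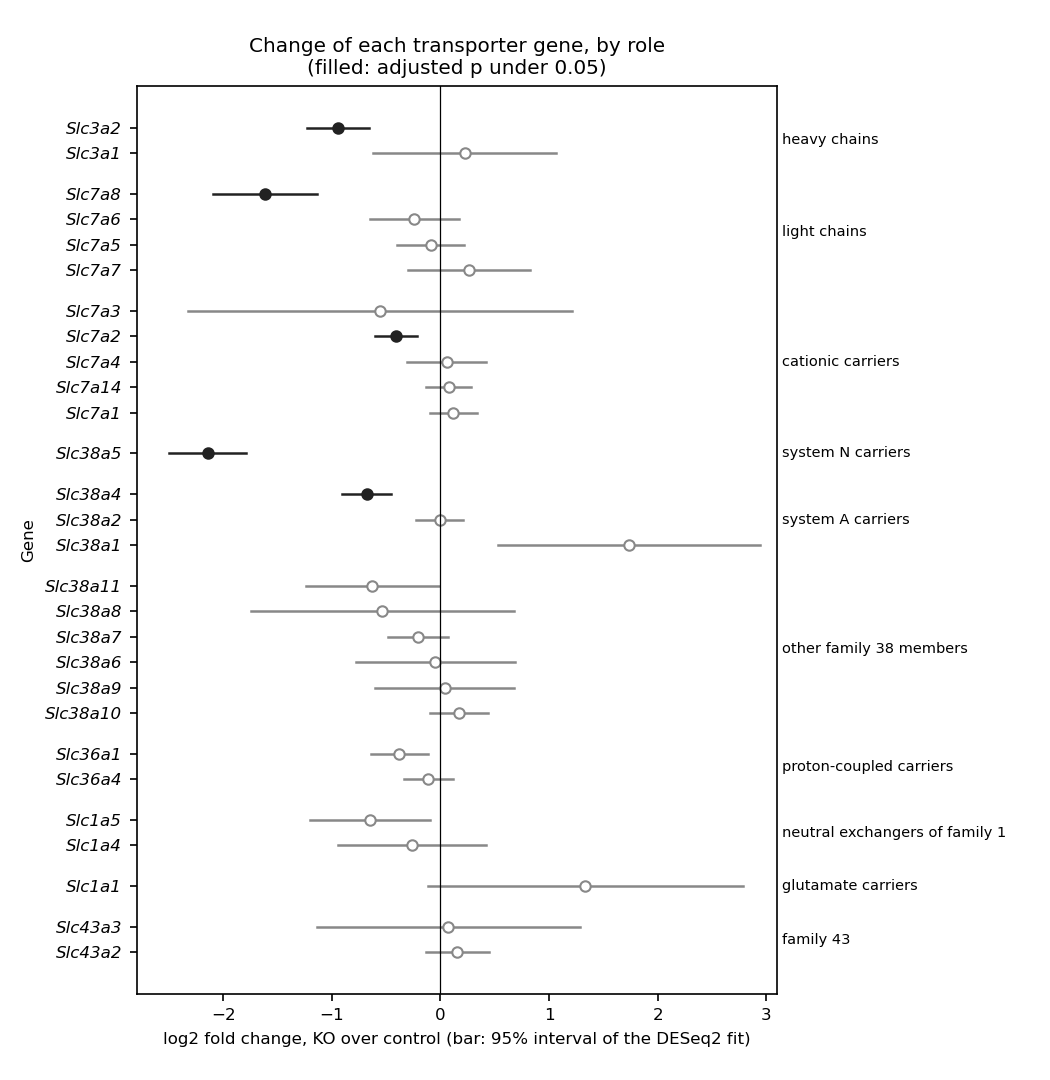
log2 fold change of KO over control for the 28 reported transporter genes, grouped by role, with the 95% interval of the DESeq2 fit as a bar and filled points for an adjusted p under 0.05. The filled points are Slc38a5 (-2.14), Slc7a8 (-1.62), Slc3a2 (-0.94), Slc38a4 (-0.68) and Slc7a2 (-0.41), each among genes of its own role that are open, except that Slc38a5 is alone in its role.

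Proton-coupled carriers were present as Slc36a1 and Slc36a4. Slc36a1 encodes PAT1, which exports small amino acids from lysosomes, and had 2033, 2263, 2161 and 2477 normalized counts across controls and 1904, 1488 and 1751 across KO libraries. The groups did not overlap, and the log2 fold change was -0.38 (SE 0.13), at adjusted p values of 0.0835 in DESeq2 and 0.204 in edgeR. Slc36a4 had -0.11 (95% interval -0.34 to 0.11). The neighbours of Slc36a1 on chromosome 11, Slc36a2 and Slc36a3, had 0 and at most 3 counts per library.

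In family 1, Slc1a5, which encodes the glutamine exchanger ASCT2, had 259, 173, 192 and 238 normalized counts in the controls, against 111, 170 and 132 in KO. Every KO library was below every control, by little for KO 2, and the log2 fold change was -0.65 (SE 0.28, adjusted p 0.25 in DESeq2). Its relative Slc1a4 had -0.26 (95% interval -0.94 to 0.42). The glutamate carriers had low counts. Slc1a1 had 11.8 to 47.7 normalized counts in controls and 19.6 to 114 in KO libraries. Its log2 fold change was 1.33 (95% interval -0.12 to 2.79), and 0.52 without the unnumbered KO library, and 31.9% of its exon length lies under exons of 4430402I18Rik. Slc1a2 had at most 26 counts, and Slc1a3, Slc1a6 and Slc1a7 at most 8.

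In family 43, Slc43a2, which encodes LAT4, an exporter of large neutral amino acids, had 12854, 16830, 13680 and 11906 normalized counts across controls and 14494, 13880 and 17818 across KO libraries. The groups overlapped, with a log2 fold change of 0.16 (95% interval -0.13 to 0.44). Slc43a3 had 18.8 to 50.4 normalized counts over all libraries, and Slc43a1 at most 6 counts.

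Over the 28 genes the median log2 fold change was -0.10, against 0.01 over all genes tested, with 17 values below 0 and 11 above. In 8 genes every KO library was below every control: the 5 called genes, Slc36a1, Slc1a5 and Slc38a11. In 0 genes was every KO library above every control. Among all genes tested these shares were 5.88% and 5.99%, and 28.6% of the 28 were in the first class. For 15 of the 23 genes that did not pass, the 95% interval lay between -1 and 1, so a change beyond 2-fold (1 log2 unit) was outside it. For the remaining 8 the interval reached beyond -1 or 1, so a change beyond 2-fold was not outside it. Among these 8 the interval excluded 0 only for Slc38a1 (0.53 to 2.94), Slc1a5 (-1.20 to -0.09) and Slc38a11 (-1.24 to -0.02).

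Levels can be compared between genes only per length, here the union of all annotated exons of a gene. Annotated exons that the cells do not use lower the value of a gene. Per kilobase of exon the highest control means were 6854 ± 340 normalized counts for Slc7a2, 3440 ± 935 for Slc7a8, 2597 ± 273 for Slc38a4, 2180 ± 319 for Slc3a2, 2096 ± 250 for Slc38a10, 1977 ± 122 for Slc7a14, 1376 ± 213 for Slc43a2 and 1144 ± 180 for Slc38a5 (SD, n = 4). Slc7a2 stood clear of the next gene, while Slc7a8 and Slc38a4, and then Slc3a2, Slc38a10 and Slc7a14, were within their spreads of each other. In KO libraries Slc38a10 (2359 ± 306) and Slc7a14 (2084 ± 213) stood above Slc38a4 (1620 ± 86.9), Slc3a2 (1133 ± 138) and Slc7a8 (1122 ± 374), and Slc38a5 was at 259 ± 49.0 (SD, n = 3).

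**Figure D3:**
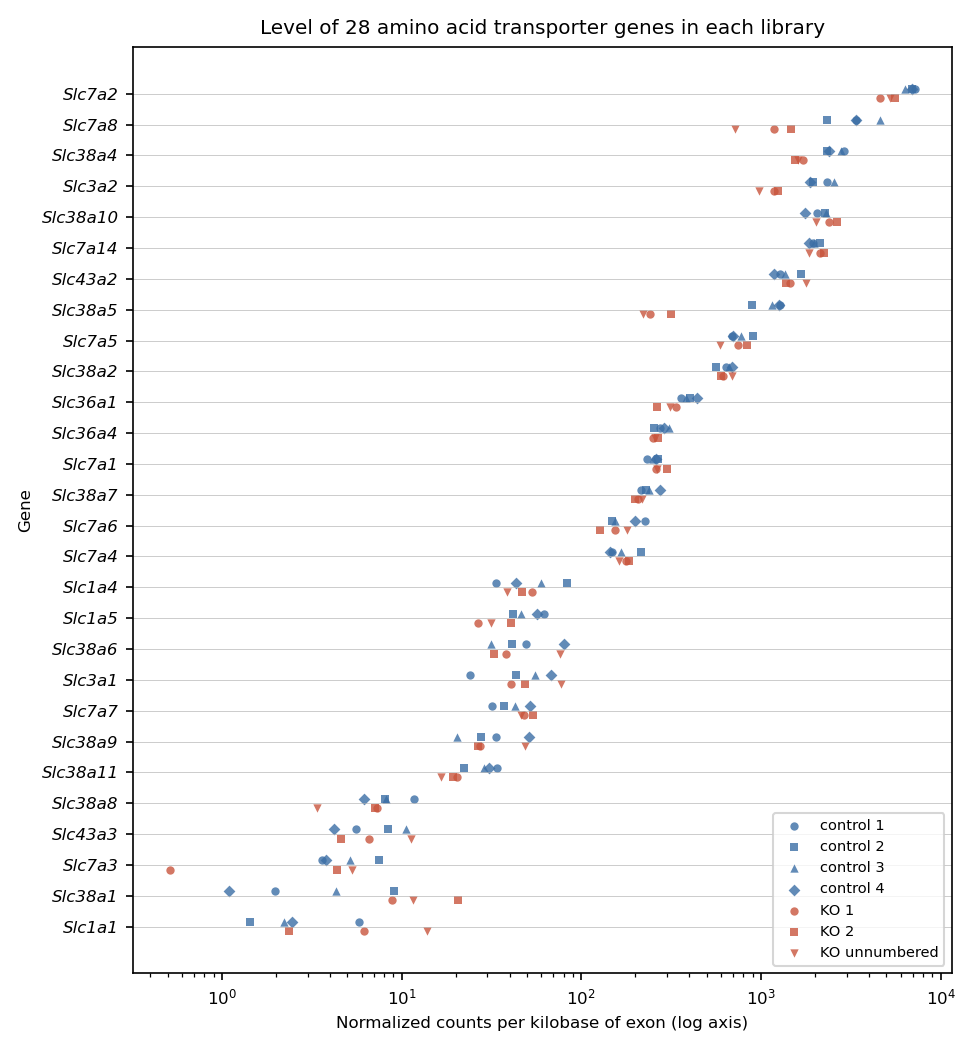
Normalized counts per kilobase of exon (log axis) of the 28 reported transporter genes, ordered by their control mean, with 1 point per library. Slc7a2 is highest, with means of 6854 in controls and 5163 in KO, and the KO points of Slc38a5 and Slc7a8 lie apart from their controls.

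The 14 transporters below the minimum were near 0. Both Slc7a12 and Slc36a2 had 0 counts in all 7 libraries, which allows up to 3 counts in each if each count is a separate fragment. Apart from Slc7a15, the highest count among the 14 was 28, for Slc7a10 in control 4, and exons of Lrp3 on the opposite strand cover 17.9% of that gene's exon length. Markers of acinar cells, which also express amino acid carriers, summed to 1479 to 13390 normalized counts in controls and 3223 to 8925 in KO libraries. The groups overlapped, and Amy2a5 was at 0 in every library. Of 11 acinar markers 8 were tested, with a median log2 fold change of -0.51, and 1 of the 8, Bhlha15, rose (0.82 on the log2 scale, adjusted p 0.0192 in DESeq2). Leukocyte markers summed to 860 to 1401 in controls and 592 to 745 in KO libraries, without overlap. Of 5 leukocyte markers 2 were tested, and 1 was lower in DESeq2 and 0 in edgeR. That is 50% of those tested against 4.39% of all genes, a share that rests on 1 gene. The part of leukocyte RNA in the results was not tested.

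Other amino acid genes, from 5 lists, were examined in the same fit. DESeq2 tested 113 of 129 listed genes and called 10 of them, 2 higher and 8 lower, or 8.85% against 4.39% of all genes, and edgeR called 2 (Arg1 and Gars). Their median log2 fold change was -0.04. Without control 3 the number of DESeq2 calls was 6.

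Among transporters of other families, 2 of 19 tested were called, 10.5% against 4.39% of all genes, with a list median of 0.02. Slc16a10, the carrier of aromatic amino acids, had 20736, 20712, 21987 and 21011 normalized counts in the controls, against 16270, 17841 and 13849 in KO, and fell by 0.40 on the log2 scale (SE 0.11, adjusted p 0.00801 in DESeq2). That call was lost without control 3 (0.0725) and without KO 1 (0.0914). Slc6a19, the neutral amino acid carrier of gut and kidney, rose from a low level, with 26.1, 25.9, 36.6 and 13.7 normalized counts across controls and 80.2, 136 and 110 across KO libraries (log2 fold change 2.11, SE 0.48, adjusted p 0.000704 in DESeq2, and 0.0701 without KO 2).

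Enzymes of amino acid metabolism had 4 calls among 25 tested, 16% against 4.39% of all genes, and a median of -0.14. The 3 described here are Arg1, Glul and Aldh4a1. Arg1, the arginase that cleaves arginine to ornithine and urea, had 5100, 7035, 5365 and 4588 normalized counts in the controls, against 11714, 12874 and 10790 in KO. It rose by 1.09 on the log2 scale (SE 0.15, DESeq2 adjusted p 5.02e-10, edgeR adjusted p 0.0137) and passed whichever of the 7 libraries was left out. Glul, the glutamine synthetase, fell by 0.56 (adjusted p 0.00604 in DESeq2, 0.0547 without control 3). Aldh4a1, an enzyme of proline breakdown, fell by 0.78 (0.00824, and 0.0716 to 0.0774 without control 3, KO 1, KO 2 or the unnumbered KO library). Exons of Gm21969 on the same strand share 32.5% of the Aldh4a1 exon length, so its counts are uncertain.

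Among genes of the mTORC1 amino acid sensing list 2 of 40 were called, 5.0% against 4.39% of all genes, with a median of -0.04. Rragd, a Rag GTPase that brings mTORC1 to lysosomes, fell by 0.50 (adjusted p 0.00257 in DESeq2) and passed whichever of the 7 libraries was left out. Castor2, a relative of the arginine sensor Castor1, had 47484, 57050, 38144 and 33293 normalized counts in the controls, against 32285, 29127 and 29893 in KO. Its log2 fold change was -0.53 (adjusted p 0.046 in DESeq2), and it passed without control 3 or control 4 but not without any other library (0.123 to 0.196), nor with TMM (0.0647) or total-count size factors (0.141), nor with the Cook filter (0.0502) or independent filtering (0.0859) turned off. Of 5 receptors that sense amino acids 1 was called, 20% against 4.39% of all genes, a share that rests on 1 gene. Gpr142, a receptor for aromatic amino acids, fell by 0.77 (adjusted p 0.00447 in DESeq2), and did not pass without control 1 (0.0543), control 3 (0.0504) or the unnumbered KO library (0.0506).

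In the amino acid response list, genes that rise when amino acids run short, 1 of 28 tested genes was called, 3.57% against 4.39% of all genes, and the median was 0.00. Gars, the glycyl-tRNA synthetase, had 9513, 9453, 10375 and 9182 normalized counts across controls and 6461, 6115 and 5321 across KO libraries, and fell by 0.69 (SE 0.11, DESeq2 adjusted p 1.72e-08, edgeR adjusted p 0.0177). Atf4, the transcription factor that drives this response, had a value of 0.11 on the log2 scale (DESeq2 adjusted p 0.939), and its target Asns, the asparagine synthetase, had -0.23 (0.571).

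**Figure D4:**
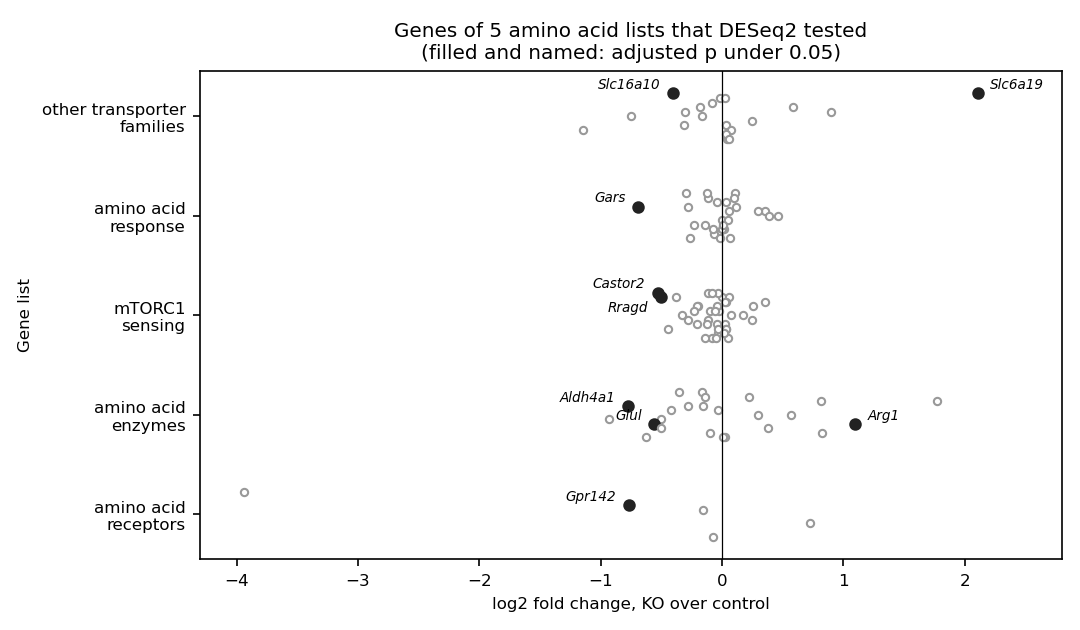
log2 fold change of KO over control for the genes of 5 amino acid lists that DESeq2 tested, 1 point per gene and 1 gene not drawn, with filled and named points for an adjusted p under 0.05. The 2 named points to the right are Slc6a19 (2.11) and Arg1 (1.09), and the other 7 lie to the left, between -0.78 for Aldh4a1 and -0.40 for Slc16a10.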

How the data were processed

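Per the labels' protocols, sorted cells went through the RNeasy Micro kit (Qiagen) and a stranded total RNA kit for small inputs (SMARTer Pico, Takara). The authors deposited 1 table of whole-number counts per gene. FastQC, STAR, featureCounts, DESeq2 and the mm10 build are named in the submitters' processing notes, without versions. Strand setting and annotation release are not given in the sources used here. All 55536 identifiers equal those of GENCODE M21 on GRCm38 (mm10), which gave positions and exon lengths. Of the counts from 1 to 10, between 84.4% and 88.9% were even in each library. Whether pairs or single mates were counted is not given in the sources used here. The floor of 3 counts covers counting error only, and takes each count as a separate fragment. With all counts divided by 2, DESeq2 called 5 transporters lower and 0 higher.

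The KO column numbered 4 matches no KO title and is called the unnumbered KO library. The main test was the DESeq2 1.42.0 Wald test (R 4.3.3, no covariate, filtering at 0.05), as the series' design text states, with Benjamini-Hochberg adjustment over all genes tested. edgeR 4.0.16 (quasi-likelihood, TMM, default filter) was the first alternative. Unless a tool is named, adjusted p-values and log2 fold changes are from DESeq2. Normalized counts are counts divided by size factors, and 95% intervals are 1.96 SE to either side. The members, lists and tests were chosen with earlier results of these data known. Transporters given with values in every library are those called in either tool, those without overlap between groups and the 12 most abundant by count. Slc38a1 was added after its values were seen. The scripts were tested on simulated data. Of 6 duct cell markers tested, 1 was called, as higher in KO (16.7% against 4.39% of all genes), with a list median of 0.59. Endothelial, mesenchymal and Schwann cell markers had 0 calls among 5, 6 and 4 tested, with medians of 0.73, 0.40 and -0.25. Summed endothelial markers were 204 to 356 normalized counts in controls and 153 to 936 in KO libraries. The gene counted among the amino acid enzymes that passed but not named is not reported here.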

Additional observations from a re-analysis of the deposited data

How the results depend on the processing

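The number of transporters lower in KO was 5 or 4 under every alternative tried. It was 4 with edgeR, with edgeR without control 4, with total-count size factors and with the replicate block, and 4 to 5 in the fits that left out 1 library. The number higher was 0 or 1: 1 with total-count size factors and with the replicate block, and 0 to 1 in the fits that left out 1 library, always Slc38a1. All genes past the threshold numbered 791 (394 higher, 397 lower), 203 with edgeR, 249 with edgeR without control 4 and 430 (without KO 1) to 898 in the fits that left out 1 library. Total-count size factors moved the median log2 fold change of all genes by 0.10 and gave 685 higher and 298 lower calls, so 69.7% were higher against 49.8%. Listed amino acid genes past the threshold numbered 10, 2 with edgeR with or without control 4, 4 with the replicate block and 6 (without control 3) to 11 in the fits that left out 1 library.

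Replicate numbers are shared by controls and KO libraries 1 and 2 only, and nothing in the labels says that a number marks a shared animal or day. Deviations from the group means correlated at 0.231 for number 1 and 0.301 for number 2 over 14570 genes, which with 2 pairs does not establish pairing. With the replicate block on these 4 libraries Slc7a8 changed by -1.11 on the log2 scale (adjusted p 0.14 in DESeq2) and Slc38a1 by 1.64 (0.0158). On the same libraries without the block the values were -1.12 (0.00935) and 1.41 (0.86).

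Signs reversed only among transporters that did not pass. With the replicate block Slc43a2 had -0.055, Slc38a9 -0.18 and Slc38a2 0.013. On the same 4 libraries without the block Slc43a3 had -0.33, Slc43a2 -0.068, Slc38a9 -0.18, Slc38a2 0.011 and Slc7a4 -0.0028. Without the 2 deepest libraries Slc43a3 had -0.55, Slc43a2 -0.030 and Slc38a9 -0.013. With total-count size factors Slc7a5 had 0.0037, Slc38a6 0.062 and Slc38a2 0.10, and with TMM Slc38a2 had 0.0057. In edgeR without control 4 Slc43a3 had -0.11, Slc38a6 0.28, Slc38a2 0.037 and Slc7a4 -0.0041. In the fits that left out 1 library the ranges were -0.36 to 0.32 for Slc43a3, -0.21 to 0.034 for Slc7a5, -0.44 to 0.014 for Slc1a4, -0.31 to 0.33 for Slc38a9, -0.52 to 0.27 for Slc38a6, -0.076 to 0.030 for Slc38a2, -0.010 to 0.20 for Slc7a4 and -0.10 to 0.45 for Slc3a1. The edgeR fit without control 4 and the fit of 4 libraries without the block were chosen after the data were seen. Depth limits the genes under about 50 normalized counts, whose intervals are the widest.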
